A study of Mus musculus with 5 samples.

Results

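The 44 genes described here encode the proximal machinery of T cell receptor signalling: the receptor chains, their accessory receptors, the kinases and adaptors that relay the signal, and the proteins that limit it. They were taken by symbol from a list made by hand, and all 44 were among the 19726 symbols listed for each library. Levels are taken as TPM, a share of all transcripts corrected for transcript length, so that genes can be compared with each other within a library. The mice were wild-type C57/Bl6j animals, 7 weeks old. Their CD4+ T cells gave 3 libraries from spleen (replicates 1, 2 and 3) and 2 from MC38 tumors (replicates 2 and 3). MC38 tumors grow from a mouse colon carcinoma cell line, and no agent or engineered allele is named for either group. Each extraction used 300000 cells. How the cells were purified, how many animals were pooled and whether replicates came from separate mice are not given in the sources used here, so the p-values cover only variation among these libraries, part of which may be technical.

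A T cell recognises a peptide through its antigen receptor, which has no signalling tail of its own and depends on the CD3 chains and the zeta chain. The kinase LCK, brought in by the CD4 co-receptor, phosphorylates these chains, ZAP-70 docks on them and phosphorylates the adaptors LAT and SLP-76, and these assemble the enzymes that open the calcium, Ras and NF-kappaB branches. Phosphatases, ubiquitin ligases and diacylglycerol kinases set the threshold. Some of these proteins are largely confined to T and natural killer lymphocytes, while others serve the receptors of many white blood cells.

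The deposited values, taken here as TPM, summed to between 268987 and 359532 TPM in spleen and to 569309 and 596116 TPM in tumor. On that reading the remainder lies in features that are not listed. Because TPM are shares, a different unlisted remainder shifts all listed genes together. Read depth was not derived here, so no counting interval is given. The background was set at the 95th percentile of 1134 olfactory receptor genes, which lay between 10.6 and 16.2 TPM in spleen and at 7.59 and 10.7 TPM in tumor. Of the 44 genes, 28 were above it in every library, 8 were above it in neither tumor library, and Nfatc2 was above it in none. The labelled cell type was checked against markers of other cells. All 12 macrophage and monocyte markers rose in tumor, with summed levels from 14.2 to 15.6 TPM in spleen and of 4023 and 4472 TPM in tumor, led by the lysozyme gene Lyz2 at 1233 ± 37.1 TPM (SD, n = 2), and none was at 0. The CD3 chain genes Cd3d, Cd3e, Cd3g and Cd247 summed to between 391 and 525 TPM in spleen and to 87.9 and 106 TPM in tumor. Marker sums of B cells were 6.75 to 8.03 TPM in spleen and 7.02 and 8.18 TPM in tumor, those of tumor epithelium and fibroblasts 10.5 to 17.9 TPM and 9.15 and 12.2 TPM. Within the B cell list Cd79a fell, from a mean of 1.66 TPM to 0.39 TPM, and Cd79b rose, from 1.30 TPM to 3.08 TPM. Summed natural killer cell markers stood at 18.0 to 25.9 TPM in spleen and at 198 and 295 TPM in tumor, mostly the granzyme B gene Gzmb and the receptor gene Klrk1, which other lymphocytes share, while Ncr1 was at 0.64 ± 0.35 TPM in tumor. The natural killer cell markers Klrb1c and Eomes fell, from 5.37 to 0.53 TPM and from 2.59 to 1.15 TPM on average. Erythroid and platelet marker sums were 5.56 to 11.05 TPM in spleen and 95.3 and 123 TPM in tumor, mostly the chemokine gene Pf4 at 94.5 ± 18.0 TPM, and the sums of neutrophil markers 16.0 to 21.4 TPM and 67.0 and 72.5 TPM, mostly Csf3r at 55.5 ± 3.28 TPM. The neutrophil marker Cxcr2 fell, from a mean of 15.5 TPM to 9.19 TPM, and S100a8, Retnlg and Ly6g had overlapping groups. In the erythroid and platelet list 4 genes rose, while Alas2 fell from a mean of 2.30 TPM to 0.88 TPM, with overlapping groups. Dendritic cell markers summed to between 51.2 and 60.4 TPM in spleen and to 116 and 165 TPM in tumor. Most of the tumor sum was the integrin gene Itgax, which macrophages share. Most of the spleen sum was Ccr7, which fell from a mean of 41.2 TPM to 15.2 TPM. Xcr1 rose, from a mean of 1.47 TPM to 5.68 TPM. Siglech was lower without being called, and Flt3, Clec9a and Zbtb46 had overlapping groups. The part of other cells in the results was not tested. In bulk RNA, fewer cells of a type and less RNA per cell cannot be told apart.

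The design sets CD4+ T cells of the tumor against those of the spleen. Receptor chains, accessory receptors and most lymphocyte-restricted kinases and adaptors were lower in tumor. Genes of the BCL10 and MALT1 complex, the exchange factor gene Vav1 and the phosphatase gene Ptpn6 were higher. The test was limma's moderated linear model on log2(TPM + 1) over the 12979 genes whose mean reached 1 TPM, with genes called at a Benjamini-Hochberg adjusted p below 0.05. All 44 genes passed the filter on low values: 29 fell, 9 rose and 6 were not called. Over all tested genes 59.0% were called, 18.1% as falls and 40.9% as rises. The median log2 change was -1.56 over the 44 genes and 0.23 over all tested genes, on this scale, where the pseudocount shrinks the changes of genes with low levels. Falls of at least 2-fold numbered 26 among the 44 genes, against 5.15% of all tested genes, and rises of at least 2-fold numbered 6, against 26.4%. The tumor libraries lay wholly below the spleen libraries for 30 of the 44 genes and wholly above for 10, where 23.8% and 46.6% of all tested genes did so. The balance moved with the scaling. Scaling by median ratios gave 32 falls and 8 rises, by the upper quartile 35 and 7, by equal totals 35 and 4, and with the 20 most abundant genes left out of the totals 36 and 4. Those scalings placed the median log2 change of all genes at -0.06, -0.35, -0.54 and -0.60 in that order.

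**Figure D1:**
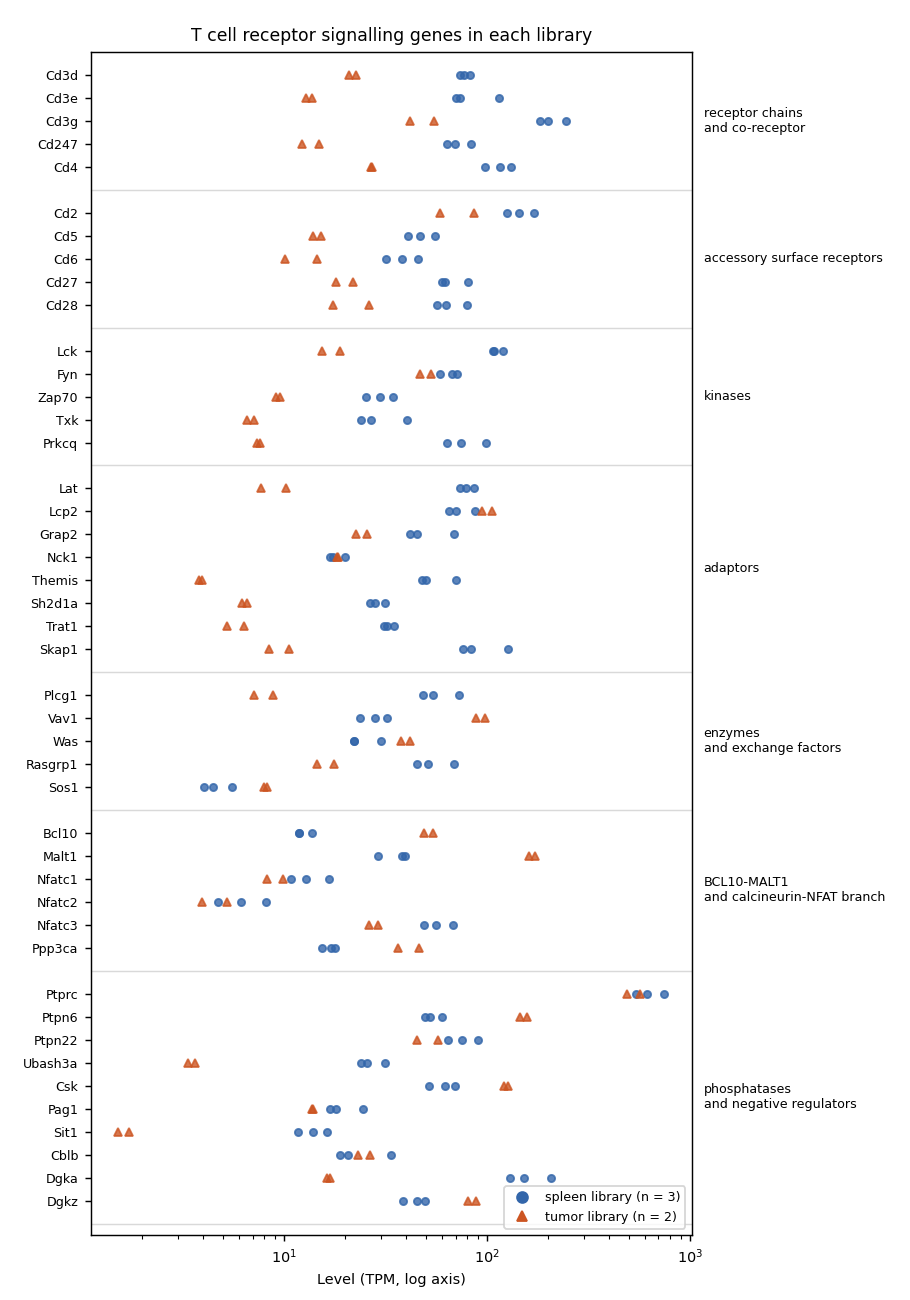
Level of each of the 44 genes in each library (TPM, log axis), grouped by role; circles are the 3 spleen libraries and triangles the 2 tumor libraries. Receptor chains and accessory receptors sit lower in both tumor libraries than in any spleen library, while Malt1, Bcl10, Vav1 and Ptpn6 sit higher.

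All 4 CD3 chain genes and Cd4 fell, with a median log2 change of -2.09 over the 5 genes. Cd3e, the epsilon chain that pairs with the delta and gamma chains, was at 70.7, 114 and 73.3 TPM in spleen replicates 1, 2 and 3 and at 13.8 and 12.9 TPM in tumor replicates 2 and 3. Its tumor level was 15.5% of its spleen mean, the lowest share among the 5 receptor genes. Cd3d, the delta chain, stood at 73.8, 82.3 and 76.7 TPM in spleen and 22.6 and 20.9 TPM in tumor, or 28.0% of the spleen mean, the highest share of the 5. Cd3g, the gamma chain, was the most abundant of them, at 183, 246 and 199 TPM in spleen and 54.8 and 41.9 TPM in tumor. Cd247 encodes the zeta chain, which carries the most activation motifs of the complex. It went from 63.3, 83.1 and 69.7 TPM to 14.9 and 12.2 TPM. Cd4 itself, at 97.7, 131 and 116 TPM in spleen, was at 26.8 and 27.2 TPM in tumor (log2 change -2.04 ± 0.21, SE; limma adjusted p = 5.2e-12). No receptor gene had overlapping groups, while 23.8% of all tested genes lay wholly lower in tumor and 46.6% wholly higher. Cd3g, Cd3d and Cd3e lie next to each other on chromosome 9 (GRCm38, 44969572 to 45009663), with 1337 bases between Cd3g and Cd3d and 11682 bases between Cd3d and Cd3e.

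The accessory receptors fell as well, all 5 of them, with a median log2 change of -1.57. Cd2, an adhesion receptor that strengthens the contact with the presenting cell, was the gene with the smallest fall among them: 126, 170.3 and 144 TPM in spleen against 86.5 and 58.5 TPM in tumor (log2 change -1.02 ± 0.21, SE; limma adjusted p = 5.8e-05). Cd28, the receptor for the costimulatory ligands CD80 and CD86, was at 56.8, 79.4 and 62.8 TPM in spleen and at 26.3 and 17.5 TPM in tumor. Cd27, a costimulatory receptor of the TNF receptor family, went from 67.4 ± 11.1 TPM (SD, n = 3) to 19.9 ± 2.68 TPM (SD, n = 2). Cd5 and Cd6, neighbours on chromosome 19 that encode related scavenger receptor family proteins able to dampen the signal, fell to 30.4% and 32.0% of their spleen means. The tumor libraries lay wholly below the spleen libraries for every accessory receptor, as they did for 23.8% of all tested genes.

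Of the 5 kinase genes, 4 fell, and the Src family gene Fyn was not called. Lck, the kinase that starts the cascade, was at 108, 119.9 and 107 TPM in spleen and at 18.9 and 15.4 TPM in tumor (log2 change -2.64 ± 0.21, SE; limma adjusted p = 9.2e-16). Fyn, a Src family kinase present in many tissues, was at 58.5, 71.1 and 67.3 TPM in spleen and at 46.7 and 52.8 TPM in tumor. The groups did not overlap for Fyn either, but its log2 change of -0.39 ± 0.21 (SE) gave a limma adjusted p of 0.10. It was called lower under all 4 scalings named above and without spleen replicate 1. Prkcq, the protein kinase C theta gene that links the receptor to NF-kappaB, went from 63.9, 99.4 and 74.2 TPM to 7.60 and 7.36 TPM, the largest fall among the kinases. Zap70, whose product binds the phosphorylated receptor chains, was at 25.2, 34.2 and 29.7 TPM in spleen and at 9.59 and 9.10 TPM in tumor. Txk, a Tec family kinase of T cells, fell from 30.3 ± 8.71 to 6.82 ± 0.38 TPM, below the background in both tumor libraries.

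Among the 8 adaptor genes 6 fell, and Lcp2 and Nck1 were not called. Themis, an adaptor best known from thymocyte development, showed the largest fall of all 44 genes. It was at 47.7, 70.5 and 50.3 TPM in spleen and at 3.79 and 3.96 TPM in tumor, below the background in both (log2 change -3.53 ± 0.21, SE; limma adjusted p = 5.7e-20). Lat, the membrane scaffold on which the complex assembles, was at 73.4, 86.5 and 78.4 TPM in spleen and at 10.3 and 7.66 TPM in tumor. Skap1, which couples the receptor to integrin adhesion, went from 75.9, 127 and 83.3 TPM to 10.6 and 8.42 TPM. These 3 adaptors were each at or below 11.3% of their spleen means in tumor. Sh2d1a, the SLAM receptor adaptor gene, fell from 28.7 ± 2.55 to 6.37 ± 0.26 TPM, and Trat1, a transmembrane adaptor that associates with the receptor, from 32.7 ± 1.83 to 5.78 ± 0.78 TPM. Sh2d1a and Trat1 were below the background in both tumor libraries. Grap2, whose product GADS bridges LAT and SLP-76, fell least, from 41.8, 68.7 and 45.4 TPM to 22.7 and 25.5 TPM. Lcp2 encodes SLP-76 itself, the partner of GADS. It was at 64.7, 87.0 and 70.5 TPM in spleen and at 94.8 and 106 TPM in tumor. The Lcp2 groups did not overlap, with tumor the higher, but the log2 change of 0.44 ± 0.21 (SE) was not called (limma adjusted p = 0.063). It was called lower under 3 scalings, at -0.24 by the upper quartile, -0.48 by equal totals and -0.56 with the 20 most abundant genes left out. Without spleen replicate 2 it was called higher. Nck1, an actin-linking adaptor found in most cells, was at 16.9 to 19.9 TPM in spleen and at 18.4 and 18.2 TPM in tumor, with overlapping groups. Nck1 was called lower under the same 3 scalings, at -0.63, -0.86 and -0.93 in that order.

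The enzymes and exchange factors moved in both directions, with 2 falls and 3 rises among 5 genes. Plcg1, the phospholipase that produces the calcium and diacylglycerol messengers, was at 48.3, 72.9 and 54.3 TPM in spleen and at 7.10 and 8.79 TPM in tumor, below the background in both tumor libraries. Rasgrp1, the Ras activator that responds to diacylglycerol, fell from 45.2, 69.0 and 51.0 TPM to 14.6 and 17.7 TPM. Vav1, a Rac exchange factor of blood cells, was at 23.6, 32.2 and 28.0 TPM in spleen and at 87.9 and 98.2 TPM in tumor, 333% of its spleen mean (log2 change 1.71 ± 0.21, SE; limma adjusted p = 8.9e-10). Vav1 was called higher under all of these scalings. Was, the Wiskott-Aldrich actin regulator gene, had 24.8 ± 4.47 TPM in spleen against 39.9 ± 2.93 TPM in tumor, and Sos1, a widely expressed Ras exchange factor gene, at 4.67 ± 0.80 and 8.09 ± 0.18 TPM. Their log2 changes of 0.68 and 0.69 were called. That of Was was no longer called without spleen replicate 3 (0.61, limma adjusted p = 0.067) or tumor replicate 3 (0.60, limma adjusted p = 0.095). The rise of Sos1 was lost under all 4 scalings, at 0.40 by median ratios, 0.10 by the upper quartile, -0.11 by equal totals and -0.18 with the 20 most abundant genes left out. The rise of Was was lost by the upper quartile (0.003) and by equal totals (-0.23), and with the 20 most abundant genes left out Was was called lower, at -0.31. Sos1 lay under the background in all spleen libraries.

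In the branch that leads from protein kinase C theta to NF-kappaB, Bcl10 and Malt1 rose. BCL10 and the protease MALT1 form a complex that activates NF-kappaB downstream of antigen receptors and of several innate receptors. Malt1 was at 29.0, 39.6 and 38.3 TPM in spleen and at 161 and 172 TPM in tumor, the largest rise among the 44 genes (log2 change 2.20 ± 0.21, SE; limma adjusted p = 5.6e-13). Bcl10 was at 11.8, 13.7 and 11.8 TPM in spleen and at 49.1 and 53.9 TPM in tumor. In spleen Bcl10 was above the background in replicate 2 only. Malt1 and Bcl10 were both called higher under each of the 4 scalings. In the calcineurin and NFAT branch, Ppp3ca, the catalytic subunit gene of calcineurin, rose from 17.1, 17.8 and 15.4 TPM to 36.4 and 46.2 TPM, a call that was lost with equal totals (log2 change 0.35) and with the most abundant genes left out (0.27). The NFAT transcription factor gene Nfatc3 fell from 57.5 ± 9.50 to 27.7 ± 2.07 TPM. Nfatc1 was at 10.8, 16.7 and 12.8 TPM in spleen and at 8.21 and 9.93 TPM in tumor. It was above the background only in spleen replicate 2 and tumor replicate 2. Its log2 change of -0.51 ± 0.21 (SE; limma adjusted p = 0.038) was lost on leaving out any 1 of the libraries except spleen replicate 1. Nfatc2 had overlapping groups at background level, 6.34 ± 1.74 and 4.60 ± 0.94 TPM, and was called lower only under the 4 scalings, without spleen replicate 1 and with the replicate number as a block.

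Phosphatases and negative regulators were split, with 5 falls, 3 rises and 2 genes not called among 10. Ptprc encodes CD45, the phosphatase on all white blood cells that keeps LCK ready for activation. It was the most abundant of the 44 genes in both tissues, at 545, 748 and 615 TPM in spleen and 493 and 566 TPM in tumor, with overlapping groups. Its log2 change of -0.25 ± 0.20 (SE) was not called, but Ptprc was called lower under all 4 scalings. Ptpn6, the inhibitory phosphatase SHP-1 of blood cells, was at 49.6, 52.4 and 60.3 TPM in spleen and at 146 and 158 TPM in tumor (log2 change 1.48 ± 0.21, SE; limma adjusted p = 2.4e-08). Csk, the kinase that switches Src family members off, was at 52.0, 69.8 and 62.4 TPM in spleen and at 126 and 122 TPM in tumor. Its log2 change of 1.01 came to 0.09 with equal totals and 0.009 with the most abundant genes left out, and was then not called. Pag1, the membrane anchor of CSK, stood at 16.9, 24.6 and 18.1 TPM in spleen and at 13.7 and 13.8 TPM in tumor. The Pag1 change of -0.48 was called by a small margin (limma adjusted p = 0.047) and was lost without spleen replicate 2, spleen replicate 3 or either tumor replicate. Ubash3a, a T cell phosphatase family gene, and Sit1, a transmembrane adaptor that recruits inhibitory proteins, fell to 13.0% and 11.7% of their spleen means, both under the background in tumor. Sit1 was also under the background in spleen replicate 1. Ptpn22, a phosphatase that acts with CSK on LCK, was at 64.3, 90.5 and 74.9 TPM in spleen and at 57.5 and 44.9 TPM in tumor. Its fall of 0.57 on the log2 scale was lost without spleen replicate 3 or tumor replicate 3. Cblb, a ubiquitin ligase that restrains activation, was at 18.8, 33.7 and 20.7 TPM in spleen and at 26.5 and 23.2 TPM in tumor, within the spread of the spleen libraries. It was called lower under 3 scalings, at -0.60 by the upper quartile, -0.83 by equal totals and -0.90 with the most abundant genes left out.

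The diacylglycerol kinase genes Dgka and Dgkz moved in opposite directions. Both enzymes remove the messenger that activates RASGRP1 and protein kinase C theta. Dgka was at 129.7, 207 and 152 TPM in spleen, the third most abundant of the 44 genes there, and at 16.9 and 16.2 TPM in tumor (log2 change -3.19 ± 0.21, SE; limma adjusted p = 3.2e-18). Dgkz was at 38.4, 49.4 and 45.0 TPM in spleen and at 80.5 and 88.6 TPM in tumor (log2 change 0.92 ± 0.21, SE; limma adjusted p = 0.00016). Its rise was lost with equal totals (0.005) and turned to -0.07 with the most abundant genes left out. The ratio of Dgka to Dgkz, which no scaling can alter, was 3.38, 4.19 and 3.37 in spleen and 0.21 and 0.18 in tumor.

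**Figure D2:**
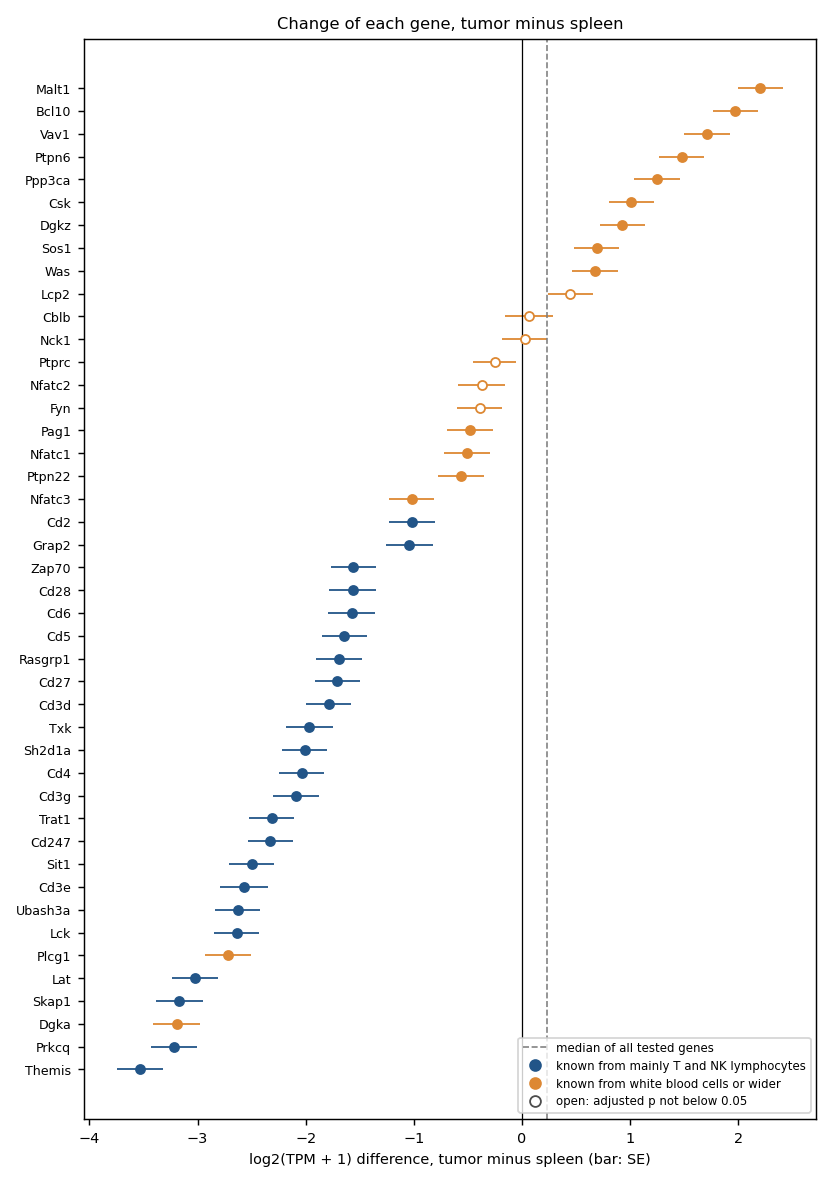
Difference of each gene between tumor and spleen on the log2(TPM + 1) scale with its SE, ordered by size; filled points were called at an adjusted p below 0.05, and the dashed line is the median of all tested genes at 0.23. Blue genes, known mainly from T and NK lymphocytes, all lie at -1.02 or lower, while orange genes span -3.19 to 2.20.

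The 44 genes were also divided by textbook knowledge into 23 known mainly from T and natural killer lymphocytes and 21 known from white blood cells in general or from most tissues. This division was made with earlier results of these data known and its counts are descriptive. All 23 lymphocyte genes fell by at least 2-fold, against 5.15% of all tested genes, with a median log2 change of -2.04. Their tumor means were 6.90% to 49.5% of their spleen means, with a median of 22.5%. They were all called lower under the 4 scalings, with every library left out in turn, and with other filters and pseudocounts. When tested against a 2-fold change, 21 of them were called lower. Their summed level was 1405, 1917 and 1530 TPM in spleen and 418 and 353 TPM in tumor. Of the 21 more widely expressed genes 9 rose, 6 fell and 6 did not pass the test, where 40.9% of all tested genes rose and 18.1% fell, so the share of rises was near that of all genes. The median log2 change was 0.07, and their summed level was 1276 to 1758 TPM in spleen and 1546 and 1683 TPM in tumor. Plcg1 and Dgka were the widely expressed genes with the largest falls, at log2 changes of -2.72 and -3.19, within the range of the lymphocyte genes. The next lowest, Nfatc3, was at -1.02. Scaled to equal totals, the 21 genes gave 12 falls and 4 rises, against 13 and 4 with the most abundant genes left out and 12 and 7 by the upper quartile. The macrophage marker sum was 4023 and 4472 TPM in the same tumor libraries, and its part in the rises was not tested.

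The genes ranked differently by level in the tissues, with no test of rank. After Ptprc, the most abundant of the 44 genes in spleen were Cd3g, Dgka, Cd2 and Cd4, and in tumor they were Malt1, Ptpn6, Csk and Lcp2. Cd3g ranked 12 in tumor and Lck went from rank 6 to rank 23. Malt1 moved from rank 28 to rank 2 and Bcl10 from rank 42 to rank 9. Neighbouring ranks often differed by less than the spread between libraries: in tumor, Lcp2 at 94.8 and 106 TPM and Vav1 at 87.9 and 98.2 TPM, at ranks 5 and 6, overlapped.

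Levels were next set relative to the CD3 chains, by scaling each library so that the mean log2(TPM + 1) of Cd3d, Cd3e, Cd3g and Cd247 was equal in all libraries. This asks which genes changed unlike the receptor itself, and it moves the median log2 change of all genes to 2.18. With this scaling limma called 95.5% of all tested genes higher in tumor and 0.863% lower. Of the 23 lymphocyte genes 9 were higher, 8 lower and 6 not called, with a median of 0.13. Cd3d and Cd3e are among these calls and are also part of the reference, as are Cd247 and Cd3g, which were not called. Cd4 was not called, at a log2 difference of 0.17 ± 0.17 (SE; limma adjusted p = 0.33), nor were Txk at 0.13, Sh2d1a at 0.079 and Trat1 at -0.24. Trat1 was called lower in 2 of the 10 settings tried for this scaling. A difference that is not called does not show that the proportion was the same.

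Of the 9 lymphocyte genes called higher relative to the CD3 chains, 5 were the accessory receptors, and the others were Cd3d, Zap70, Grap2 and Rasgrp1. Cd2 stood 1.21 ± 0.17 (SE) above them on the log2 scale (limma adjusted p = 1.6e-05), Grap2 1.15 ± 0.19, Cd28 0.63 ± 0.18, Cd6 0.58 ± 0.18 and Zap70 0.57 ± 0.17. These 5 genes were called higher in all 10 settings tried for this scaling, which included each library left out and Cd4 as the reference. Cd5, Cd27 and Rasgrp1 were called higher in most of them, and Cd3d in only 4. Lower relative to the chains in all 10 settings were 6 genes: Themis, Prkcq, Skap1, Lat, Sit1 and Ubash3a. In tumor, Themis, Sit1 and Ubash3a were under the background in both libraries, and Prkcq, Skap1 and Lat in replicate 3. Zap70 and Cd6, called higher, were also under it in tumor replicate 3. None of the settings addresses that floor, so the size of these differences is uncertain. Themis was at -1.49 ± 0.18 (SE; limma adjusted p = 3.3e-06), Prkcq at -1.09 ± 0.17, Skap1 at -1.02 ± 0.18 and Lat at -0.88 ± 0.17. Lck, at -0.45 ± 0.17, was called lower in 6 of the 10 settings, and Cd3e, at -0.39 ± 0.18, in 5. The scaffold gene Lat and the gene of theta kinase were thus lower relative to the chains, with tumor levels near the background, and the costimulatory receptor gene Cd28 was higher. Among the 21 widely expressed genes Plcg1 and Dgka were lower relative to the chains, at -0.59 and -0.9995, and the other 19 were higher. Under this scaling 95.5% of all tested genes were called higher, so that count is not particular to these genes.

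**Figure D3:**
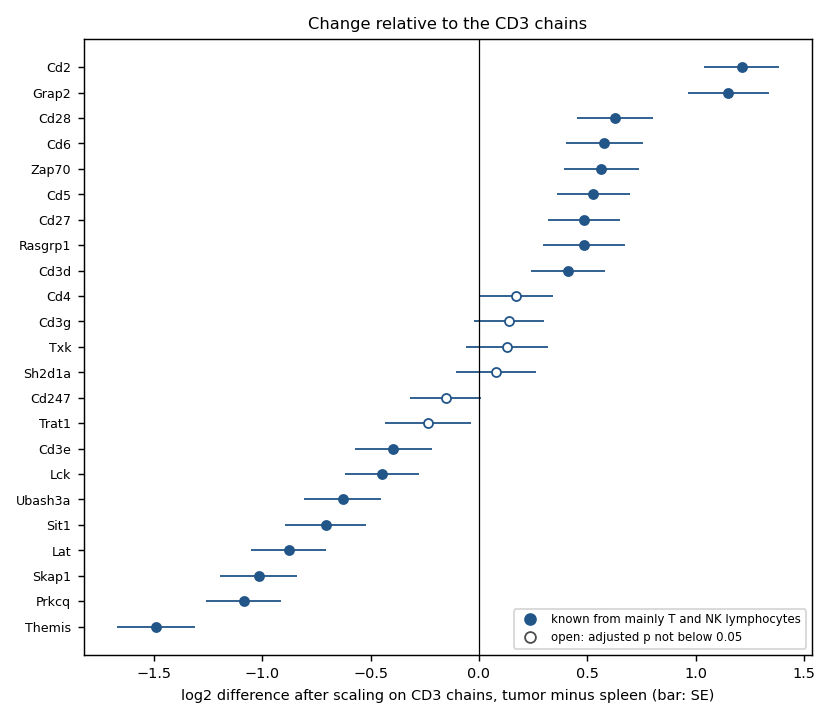
Difference between tumor and spleen for the 23 lymphocyte genes after each library was scaled on the CD3 chains, on the log2 scale with its SE; filled points had an adjusted p below 0.05. Cd2 and Grap2 lie highest, at 1.21 and 1.15, and Themis lowest, at -1.49.

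Ratios between genes of the same library carry no scaling. Cd4 to Cd3e was 1.38, 1.15 and 1.58 in spleen and 1.95 and 2.11 in tumor. Cd2 to Cd3e was 1.77, 1.49 and 1.96 in spleen and 6.28 and 4.55 in tumor, and Cd28 to Cd3e 0.80, 0.70 and 0.86 against 1.91 and 1.36. Zap70 to Lck, the kinases that act one after the other, was 0.23, 0.29 and 0.28 in spleen and 0.51 and 0.59 in tumor. In these 4 pairs the ratio was higher in tumor. In the pairs that follow it was lower. Lck to Fyn was 1.84, 1.69 and 1.59 in spleen and 0.40 and 0.29 in tumor, so that the more abundant Src family gene of the pair was Lck in every spleen library and Fyn in both tumor libraries. Lat to Lcp2, the scaffolds that GADS joins, was 1.13, 0.99 and 1.11 in spleen and 0.11 and 0.07 in tumor. The ratio of Prkcq to Malt1, which act in sequence towards NF-kappaB, was 2.20, 2.51 and 1.94 in spleen and 0.047 and 0.043 in tumor. Each of these ratios separated the tissues without overlap. Zap70, Lat and Prkcq were under the background in tumor replicate 3, so the size of their tumor ratios is uncertain. The pairs were picked by hand and were not part of the planned comparisons. Several join a gene that fell with one that rose or was not called, so their separation restates those changes. Of all tested single genes, 23.8% lay wholly lower in tumor and 46.6% wholly higher. With 3 against 2 libraries the ratios are given as values without a test.

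**Figure D4:**
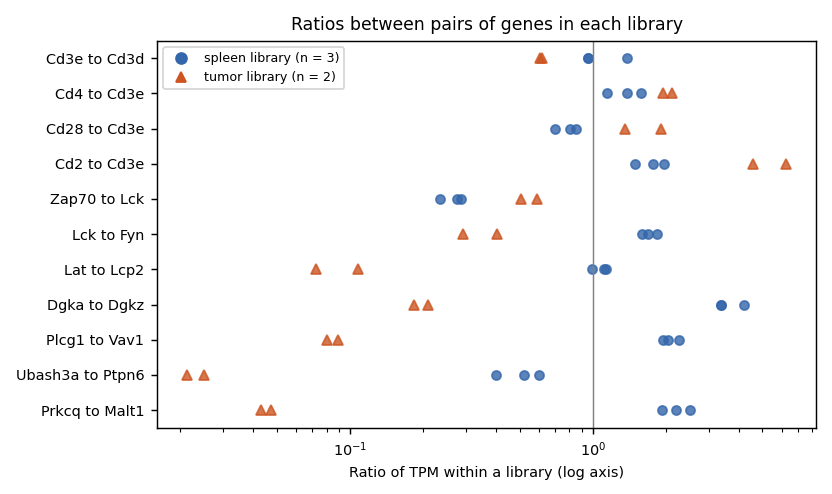
Ratio of the TPM of 2 genes within each library (log axis), with circles for the 3 spleen libraries and triangles for the 2 tumor libraries; the vertical line marks equal levels. Lck to Fyn crosses the line from 1.59 or more in spleen to 0.40 or less in tumor, and Dgka to Dgkz from 3.37 or more to 0.21 or less.

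The promoters of the lymphocyte genes and of the widely expressed genes were compared as a feature that the choice of genes did not use. RefSeq windows of 250 bases before to 50 bases after a start (GRCm38.p6) were matched by symbol for 34 of the 44 genes, with 49 windows in all. CG dinucleotides were counted because widely active promoters tend to be rich in them. The windows of 17 lymphocyte genes held a median of 5 CG dinucleotides, and 2 of the 22 windows held more than 10. Those of 17 widely expressed genes held a median of 13, and 15 of 27 held more than 10. More than 10 were held by 41.4% of all 32851 windows. Several windows belong to the same gene, so they are not independent. The lymphocyte exceptions were Rasgrp1 and Prkcq, with 26 and 37. The Ets core GGAA, searched on both strands, was present in 21 of the 22 lymphocyte windows, 25 of the 27 others and 95.98% of all windows, so its presence does not separate the sets. A letter match is no evidence of binding.

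The bases before the start of 4 genes are shown with CG dinucleotides in capitals, 5′ to 3′ on the strand of the gene. Themis fell in tumor and has few, Rasgrp1 fell and has many, and Bcl10 rose and has many. Zap70 fell, and the full window that holds its printed bases has 8, near the median of 7 over all windows. Themis lies on chr10:28668110-28668359 (plus strand), Zap70 on chr1:36761548-36761797 (plus), Rasgrp1 on chr2:117342878-117343127 (minus) and Bcl10 on chr3:145924012-145924261 (plus), all in GRCm38.p6.
Themis: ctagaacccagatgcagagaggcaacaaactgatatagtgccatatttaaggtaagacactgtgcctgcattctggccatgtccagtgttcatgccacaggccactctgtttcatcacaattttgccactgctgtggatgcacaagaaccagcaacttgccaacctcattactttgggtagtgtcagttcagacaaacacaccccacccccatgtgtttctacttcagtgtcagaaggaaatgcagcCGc
Zap70: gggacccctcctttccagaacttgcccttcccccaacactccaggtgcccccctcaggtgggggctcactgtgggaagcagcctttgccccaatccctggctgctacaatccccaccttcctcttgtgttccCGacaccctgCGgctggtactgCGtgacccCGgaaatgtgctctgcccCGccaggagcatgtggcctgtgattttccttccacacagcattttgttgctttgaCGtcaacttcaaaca
Rasgrp1: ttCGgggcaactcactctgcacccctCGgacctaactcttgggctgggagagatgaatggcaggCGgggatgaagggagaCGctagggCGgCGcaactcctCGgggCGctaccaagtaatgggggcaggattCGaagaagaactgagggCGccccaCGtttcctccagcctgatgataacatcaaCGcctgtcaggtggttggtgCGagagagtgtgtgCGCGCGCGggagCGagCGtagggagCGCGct
Bcl10: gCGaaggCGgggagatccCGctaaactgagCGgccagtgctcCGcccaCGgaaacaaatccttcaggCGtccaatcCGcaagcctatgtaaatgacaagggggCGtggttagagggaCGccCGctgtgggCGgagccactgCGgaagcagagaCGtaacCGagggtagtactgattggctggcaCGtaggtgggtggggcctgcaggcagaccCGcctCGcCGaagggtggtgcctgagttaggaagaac
The capitals number 1 pair in Themis, 6 in Zap70, 21 in Rasgrp1 and 19 in Bcl10. Rasgrp1 shows that a promoter of this kind occurred on both sides of the comparison.

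Of the other genes of the pathway, a hand-made list gave 68 that were listed and all of which were tested. In tumor 34 of them rose, 18 fell and 16 did not pass the test. Their median log2 change was 0.49, where 40.9% of all tested genes rose and 18.1% fell. Scaled to equal totals, rises numbered 21 and falls 34, against 20 and 35 with the most abundant genes left out. The Ras and ERK branch had 8 rises among 10 genes and no falls, and the NF-kappaB branch 4 rises among 7 and no falls. The calcium branch had 3 rises and 4 falls among 10. The list of other negative regulators had 10 rises and 8 falls among 18. It counts the adaptor gene Sh3bp2 and the phosphatase gene Ptpn11, both among the rises, so it is not confined to inhibitors. Among the largest rises were those of Sh3bp2, an adaptor of immune receptors (2.79 ± 0.64 to 75.4 ± 4.37 TPM), Gab2, a docking adaptor (0.43 ± 0.25 to 20.1 ± 0.66 TPM), Ptprj, the phosphatase CD148 (6.73 ± 0.82 to 72.5 ± 5.64 TPM) and the kinase gene Tec (5.46 ± 0.98 to 38.3 ± 2.16 TPM). Among the largest falls were those of Lax1, a membrane adaptor of lymphocytes (18.4 ± 1.36 to 2.34 ± 0.58 TPM), the calcium channel gene Itpr2 (48.4 ± 5.21 to 14.1 ± 0.42 TPM), the calcineurin subunit gene Ppp3cc (16.2 ± 5.10 to 5.38 ± 1.35 TPM) and the adaptor gene Sla2 (8.90 ± 1.85 to 3.04 ± 1.15 TPM). Ppp3cc fell where the calcineurin gene Ppp3ca rose.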

How the data were processed

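The authors deposited 1 table per library with 1 value per gene symbol, taken here as TPM because the deposited values have decimals and their sums stay under the total that TPM are scaled to. Libraries were stranded, ribosomal RNA-depleted total RNA read as pairs of 75 bases, per the labels' protocols. kallisto, DESeq2 and mm10 are named in the submitters' processing notes without versions or roles. The 44 genes, their roles, their division by breadth of expression and the other lists were chosen with earlier results of these data known. The test was limma 3.58.1 in R 4.3.3 on log2(TPM + 1) with a term for tissue, a trend of variance on level and two-sided p-values adjusted over all 12979 genes whose mean reached 1 TPM (3 residual and 44.1 prior degrees of freedom), tested on simulated data. All 44 genes are named, and of the other pathway genes the 5 largest called changes in each direction with a mean of at least 5 TPM in 1 tissue, some of which are not reported here. The marker with the highest tumor mean of each other cell list was Lyz2, Csf3r, Itgax (112 TPM), Cd79b (3.08 TPM), Gzmb (135 TPM), Col1a2 (5.24 TPM) and Pf4. Of the T cell markers outside the 44 genes, 5 of the 6 listed fell. Coordinates and promoters come from RefSeq tables of GRCm38.p6. Alternatives covered scaling, pseudocount, filter, trend, threshold, a 2-fold test, a block for the replicate number and the omission of each library.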

Additional observations from a re-analysis of the deposited data

How the results depend on the processing

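All 23 lymphocyte genes were called lower under the alternatives run except scaling on the CD3 chains (8 lower, 9 higher) and the test against a 2-fold change (21 lower). Over all genes, falls and rises numbered 3906 and 4322 by median ratios, 5715 and 3402 by the upper quartile, 6662 and 2724 by equal totals, 7312 and 2639 when totals omitted the top 20 genes, 112 and 12399 under the CD3 chain scaling, and 274 and 2199 against a 2-fold change. Falls numbered 1552 at a threshold of 0.01 and 1456 at a mean of at least 5 TPM. Among the 44 genes, scaling on the CD3 chains gave 10 falls and 28 rises, and rises numbered 4 with equal totals, 4 without the top 20 and 3 against a 2-fold change. Among the 21 widely expressed genes falls numbered 12 with equal totals, 13 without the top 20, 12 on the upper quartile, 3 at a threshold of 0.01, 2 scaled on the CD3 chains and 2 against a 2-fold change. Their rises numbered 4, 4, 7, 9, 19 and 3 in the same order. Among the 68 other pathway genes falls and rises numbered 34 and 21 with equal totals, 35 and 20 without the top 20, 30 and 26 on the upper quartile, 1 and 66 scaled on the CD3 chains, and 3 and 15 against a 2-fold change. Leaving out each library in turn gave 1209 (without tumor replicate 2) to 2623 falls over all genes, 26 to 31 among the 44 genes, 3 (without spleen replicate 3 or tumor replicate 3) to 8 among the widely expressed genes and 11 (without tumor replicate 3) to 20 among the other pathway genes. Rises ran from 4390 to 5842, 8 to 10, 8 to 10 and 28 to 39. With 1 tumor library left, its spread is taken to be that of spleen. Where a count moved, the cause was not tested.

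Signs turned under scaling for 6 genes that rose or did not pass the test. By equal totals, the upper quartile and omission of the top 20, Lcp2 came to -0.48, -0.24 and -0.56, Nck1 to -0.86, -0.63 and -0.93 and Cblb to -0.83, -0.60 and -0.90. All 9 of these values were called lower. By median ratios Nck1 came to -0.30 and Cblb to -0.26. Was came to -0.23 and -0.31 and Sos1 to -0.11 and -0.18 with equal totals and without the top 20, and Dgkz to -0.074 without the top 20. With each library left out in turn Nck1 ran from -0.021 (without spleen replicate 3) to 0.093 and Cblb from -0.090 (without spleen replicate 1) to 0.31. Scaling on the CD3 chains turned the sign of 20 genes: Cd3d 0.41, Cd3g 0.14, Cd4 0.17, Cd2 1.21, Cd5 0.53, Cd6 0.58, Cd27 0.49, Cd28 0.63, Fyn 1.83, Zap70 0.57, Txk 0.13, Grap2 1.15, Sh2d1a 0.079, Rasgrp1 0.48, Nfatc1 1.57, Nfatc2 1.55, Nfatc3 1.18, Ptprc 1.99, Ptpn22 1.65 and Pag1 1.65.

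The labels use replicate numbers 2 and 3 in both tissues and do not say that equal numbers share a mouse. Deviations from the tissue means correlated across genes at 0.20 for the libraries numbered 2 and 0.07 for those numbered 3. For spleen replicate 1 with tumor replicate 3, which differ in number, the value was 0.19. With only 2 tumor libraries their deviations are equal with opposite sign, so these values are not independent. They do not show that equal numbers pair. With the replicate number as a block, which leaves spleen replicate 1 without a partner, 29 of the 44 genes fell and 9 rose, and over all genes 2013 fell and 4877 rose. Pag1 was no longer called and Nfatc2 was called, while Nck1 came to -0.00063 and Cblb to -0.090. The alternatives for the scaling on the CD3 chains (each library left out, the block, a threshold of 0.01, a pseudocount of 10, Cd4 as reference) were chosen after seeing the data. They gave 6 to 9 higher and 6 to 10 lower among the 23 lymphocyte genes.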

Other observations

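Several of the 44 genes have relatives that do the same step in receptors of myeloid and B cells. The relatives named here were chosen after the values of the 44 genes were seen, and their values are given without a test. Syk, the relative of Zap70, was at 0.97, 0.77 and 0.87 TPM in spleen and at 93.2 and 107 TPM in tumor, so that Zap70 to Syk was 26.1, 44.5 and 34.2 in spleen and 0.10 and 0.085 in tumor. Syk was under the background in every spleen library and Zap70 in tumor replicate 3. Lyn, a Src family gene of myeloid and B cells, was at 4.04 ± 0.07 TPM in spleen (SD, n = 3) and at 296 ± 25.1 TPM in tumor (SD, n = 2). It stood above Lck in each tumor library and below it in each spleen library. Lat2, a scaffold related in function to Lat, had 1.20 ± 0.15 TPM in spleen against 124 ± 5.23 TPM in tumor. Plcg2, the phospholipase of B and myeloid cells, was at 0.36 ± 0.14 and 45.1 ± 7.44 TPM, while Plcg1 fell. Fcer1g, which encodes the signalling chain of Fc receptors and can stand in for the zeta chain, went from 1.93 ± 0.03 to 1257 ± 77.2 TPM. Btk, of the same family as Txk, was at 0.83 ± 0.30 and 23.6 ± 1.96 TPM, and Prkcd, of the same family as Prkcq, at 10.3 ± 1.13 and 143.7 ± 25.3 TPM.

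Within the RASGRP family, to which Rasgrp1 belongs, the genes differed. Rasgrp2 was at 34.3, 49.2 and 36.3 TPM in spleen and 2.89 and 3.01 TPM in tumor, so that Rasgrp1 to Rasgrp2 was 1.32 to 1.40 in spleen and 5.05 and 5.87 in tumor. Those tumor levels of Rasgrp2 were under the background. Rasgrp4, known from mast and myeloid cells, had 1.54 ± 0.68 TPM in spleen against 19.8 ± 3.04 TPM in tumor. The macrophage marker sum was 4023 and 4472 TPM in the same tumor libraries and at most 15.6 TPM in spleen, and its part in these levels was not tested.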
